A study of Rattus norvegicus with 8 samples.

Results

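Cytosolic ribosomal protein genes were examined in cultured rat vascular smooth muscle cells. Members were the genes whose annotated symbol begins with Rpl or Rps followed by a number, together with Rplp0 and Rpsa, and without the S6 kinase genes. The choice rests on symbols and uses no measured value, but it was made with earlier results of these data known. It gave 48 genes of 14218 with a probe set annotated to 1 gene, and 46 of them passed the filter on low signal among 11373 genes tested. Of the 46, 31 code for large-subunit and 15 for small-subunit proteins.

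The cells were taken from thoracic aortas of Sprague-Dawley males and cultured with 10% serum. Over 48 h they were transfected with control siRNA that has no target (siNTC) or with siRNA against Giver (siGiver), a long noncoding RNA known in these cells for its induction by angiotensin II (Ang II). Exposure to 100 nM Ang II, or to saline (PBS) as vehicle, followed for 3 h. The 4 resulting groups (siNTC with PBS, siNTC with Ang II, siGiver with PBS, siGiver with Ang II) held 2 Affymetrix arrays each, hybridised with labelled RNA made from 5 ug of total RNA. All 4 groups shared the serum, the culture and a transfection, and cells without siRNA were not analysed here. Nothing in the labels tells whether paired arrays of 1 group stem from different cultures, so p-values here reflect array-to-array spread that could be technical.

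A ribosome has a large and a small subunit, each built from ribosomal RNA and many proteins that are needed in equal numbers. Messages of most of these proteins start with a run of pyrimidines, the 5′ terminal oligopyrimidine (TOP) tract, through which the kinase mTORC1 and the RNA-binding protein LARP1 set how strongly they are translated and how long they last. In vascular smooth muscle cells Ang II is known as a hypertrophic hormone that raises protein synthesis.

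The starts of a few member genes are shown because the TOP tract is the sequence that the family shares and the symbol rule did not use. Each line has 15 bases on either side of the boundary at the annotated start in RefSeq (build GRCr8, on the strand of the gene), and capitals mark an unbroken run of at least 5 pyrimidines that covers the first transcribed base or begins within 3 bases of it. The first 5 genes hold such a run, and Rps3, Rpl6 and Rpl7l1 do not.
Rpl35a (chr11:81235007-81235036, minus strand): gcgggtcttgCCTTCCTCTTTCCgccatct
Rpl4 (chr8:73566462-73566491, plus strand): taagTTCTTCCTTTTCCTgtgggagcagcc
Rpl27a (chr1:172974558-172974587, plus strand): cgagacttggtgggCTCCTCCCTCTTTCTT
Rpl3 (chr7:113507976-113508005, minus strand): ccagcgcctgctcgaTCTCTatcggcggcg
Rplp0 (chr12:46718376-46718405, minus strand): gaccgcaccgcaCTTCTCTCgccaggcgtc
Rps3 (chr1:163195762-163195791, minus strand): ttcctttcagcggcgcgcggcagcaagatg
Rpl6 (chr12:41011676-41011705, minus strand): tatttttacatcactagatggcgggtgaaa
Rpl7l1 (chr9:21695703-21695732, plus strand): agctgcagatgcattgtgggaagcctttaa

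Promoters of 43 of the 48 members were in the table used, on 14 chromosomes. A pyrimidine run at the start was present in 23 of the 43 (53.5%), compared with 17.9% of all 33469 promoters and 16.8% of the 21842 promoters of protein-coding genes. Within the 300 bases around the start, both strands searched, CCGGAAG, the core recognised by ETS-family factors, was found in 10 of 43 (23.3%, against 8.75% of all promoters). ATGGCGG, which holds the YY1 core and can coincide with a start codon, was found in 12 of 43 (27.9%, against 4.8%). TATAAA was found in 6 of 43 (14%, against 14.2%). These are counts of letters at annotated starts, and neither a match nor its absence shows whether the factor binds.

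Values were deposited as log2, and differences below are log2 differences with their standard errors (SE) from a limma fit across all genes. A gene counts as higher or lower where its p, adjusted by Benjamini-Hochberg over 11373 genes, was under 0.05. The 2 arrays of each group correlated at 0.998. No probe set was annotated as Giver, so its level could not be used to check the labels. All 8 smooth muscle markers (such as Acta2, Tagln and Myh11) passed the filter, at 7.81 to 14.05 log2, and their summed level was 79.29 to 79.85 in the siNTC arrays and 81.78 to 82.69 in the siGiver arrays. For the siRNA, 6 of the 8 were called higher (75%) and 1 lower (12.5%) in each treatment. Among all genes 16% were higher and 19.1% lower in PBS, and 19.5% and 24.8% with Ang II. None of 5 endothelial markers passed, at 3.58 to 4.40 log2. Of 6 macrophage markers 2 passed, and all 5 fibroblast markers passed. The sum for macrophage markers was 27.91 to 28.34 in siNTC with PBS, 28.44 to 28.53 in siNTC with Ang II, 28.42 to 28.85 in siGiver with PBS and 27.14 to 27.85 in siGiver with Ang II. The macrophage markers that passed, Cd14 and Cd68, were lower with the siRNA in the presence of Ang II, by 0.45 ± 0.053 (adjusted p = 0.000402) and 0.60 ± 0.19 (adjusted p = 0.0375), and were not called for the siRNA in PBS. The sum for fibroblast markers was 45.53 to 45.76 in siNTC with PBS, 44.03 to 44.36 in siNTC with Ang II, 45.85 to 46.00 in siGiver with PBS and 45.11 to 45.16 in siGiver with Ang II. For the siRNA in the presence of Ang II, Dcn, Lum and Scara5 were called higher (60% of the 5) and Thy1 lower (20%). In PBS 0 of the 5 were called. The part of these shifts in the results below was not tested, and fewer cells of a type and less RNA per cell cannot be told apart.

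The 46 tested members fell into 3 kinds by signal and name. The first kind is 38 genes of the core ribosome whose probe sets gave between 12.95 and 14.37 log2 on average, where the highest value of any probe set on an array was 14.56 to 14.61. Over all 8 arrays the value of one of these genes spanned a median of 0.090 log2, from 0.032 for Rpl41 to 0.21 for Rpl35a. The second kind is 4 core genes whose single-gene probe set was dim, Rpl28, Rpl30, Rps13 and Rpl39. The third is the paralogues Rpl26l1, Rpl7l1, Rps27l and Rps4y2. The 2 members below the filter (4.81 log2) were Rpl3l, a paralogue of Rpl3 known from striated muscle, at 3.66 to 4.19 over the arrays, and Rpl39l1 at 4.23 to 4.61. A further 36 probe sets carried several gene symbols, at least 1 of them matching the rule, and were not assigned to a gene.

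**Figure D1:**
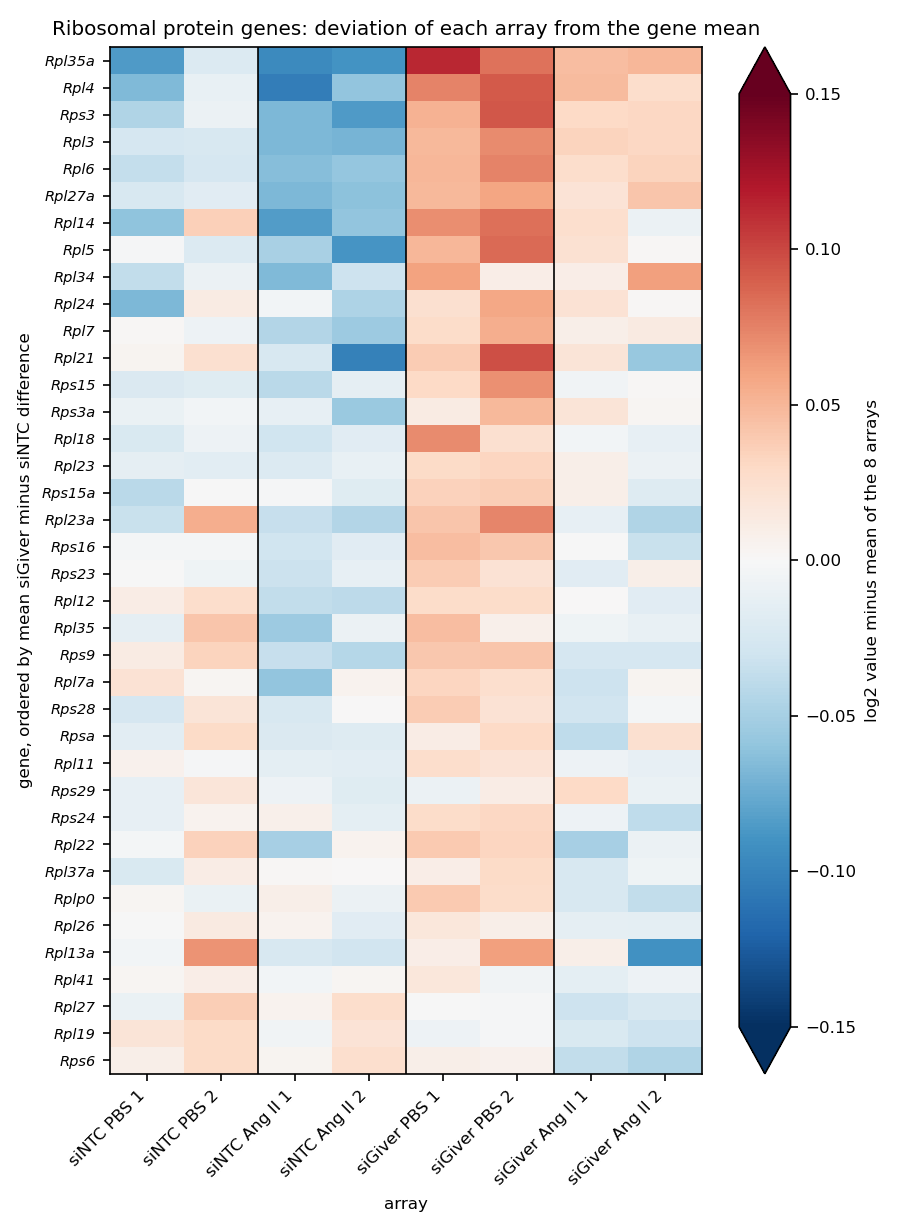
Deviation of every array from the gene's mean over the 8 arrays (log2 units, colour) for the 38 bright core genes, ordered by the averaged siGiver minus siNTC difference. The 2 siGiver arrays with PBS are mostly above the mean and the 2 siNTC arrays with Ang II mostly below it, and Rpl35a, at the top, spans 0.21 log2.

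The first question is whether Ang II changed the messages of the ribosome within 3 h. No member passed the test in either siRNA arm. In siNTC cells 0 of 46 were higher (3.97% of all genes were) and 0 were lower (2.17% of all genes were). In siGiver cells 0 were higher (9.12% of all genes) and 0 lower (7.19% of all genes). At an unadjusted p under 0.05 there were 2 in siNTC cells, Rpl30 at -0.18 and Rpl7l1 at 0.13, and 3 in siGiver cells, Rpl30 at 0.17, Rpl7l1 at 0.13 and Rps4y2 at -0.17, where 22.9% and 32.7% of all genes lay under that p. The trended fit described below called 0 members in siNTC cells (7.5% of all genes higher and 5.66% lower). In siGiver cells it called Rpl7l1 as higher (12.9% of all genes) and 5 members as lower (11.7% of all genes).

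Most member differences were small and lay below 0, without passing the test. The median difference was -0.027 in siNTC cells, where 37 of 46 lay below 0, and -0.039 in siGiver cells, where 41 did, against medians of 0.006 and -0.028 over all genes. In siNTC cells the arrays of the 2 groups did not overlap for 22 members that were lower with Ang II (24.5% of all genes) and for 2 that were higher (28.3% of all genes). In siGiver cells they did not overlap for 36 members that were lower (35.7% of all genes) and for 2 that were higher (26.7% of all genes). Averaged over both arms, a contrast added after the values had been seen, 44 of 46 members lay below 0 (53.7% of all genes). The 2 above 0 were the paralogues Rpl7l1 (0.13) and Rpl26l1 (0.060). Among 261 other genes at 12 log2 or more, 55.2% lay below 0. All 38 bright core genes, a set also chosen after seeing the data, lay below 0, at -0.082 to -0.003. That count was 37 of 38 after cyclic loess between arrays and 30 of 38 with each array's median subtracted, so the side of 0 on which the smallest differences lie depends on the scaling. The median of the 38 stayed below 0 for Ang II and above 0 for the siRNA under each of the scalings tried.

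The size of a change in the array values can be bounded, given the spread between these arrays. The bounds do not extend to message amounts, since compression of bright signals was not tested. The 95% intervals of all 38 bright core genes stayed within a 1.2-fold change, and the widest bound was that of Rpl21, -0.20 in siNTC and -0.21 in siGiver cells. Rpl21 read 12.996 and 13.02 in siNTC with PBS, 12.97 and 12.89 with Ang II, 13.03 and 13.09 in siGiver with PBS and 13.01 and 12.93 with Ang II. Its Ang II arrays lay below the PBS arrays in each arm, by 0.077 ± 0.052 (SE) and 0.087 ± 0.052, with an adjusted p of 0.425 and 0.288. All 46 intervals stayed within 1.5-fold, and the widest were those of dim probe sets. A p that misses the threshold does not show that these messages were unaffected.

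Rplp0, the base of the stalk that recruits elongation factors, differed by 0.0035 ± 0.041 in siNTC and by -0.064 ± 0.041 in siGiver cells. Rps6, the small-subunit protein phosphorylated by S6 kinase, differed by -0.0049 ± 0.041 and -0.048 ± 0.041. Rpl5 and Rpl11, which with 5S ribosomal RNA form the particle that binds Mdm2 when it is free, differed by -0.057 ± 0.043 and -0.018 ± 0.040 in siNTC cells and by -0.055 ± 0.043 and -0.033 ± 0.040 in siGiver cells. Rpsa, also known as the laminin receptor, differed by -0.027 ± 0.045 and -0.028 ± 0.045. None of these 5 genes passed the test in either arm.

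**Figure D2:**
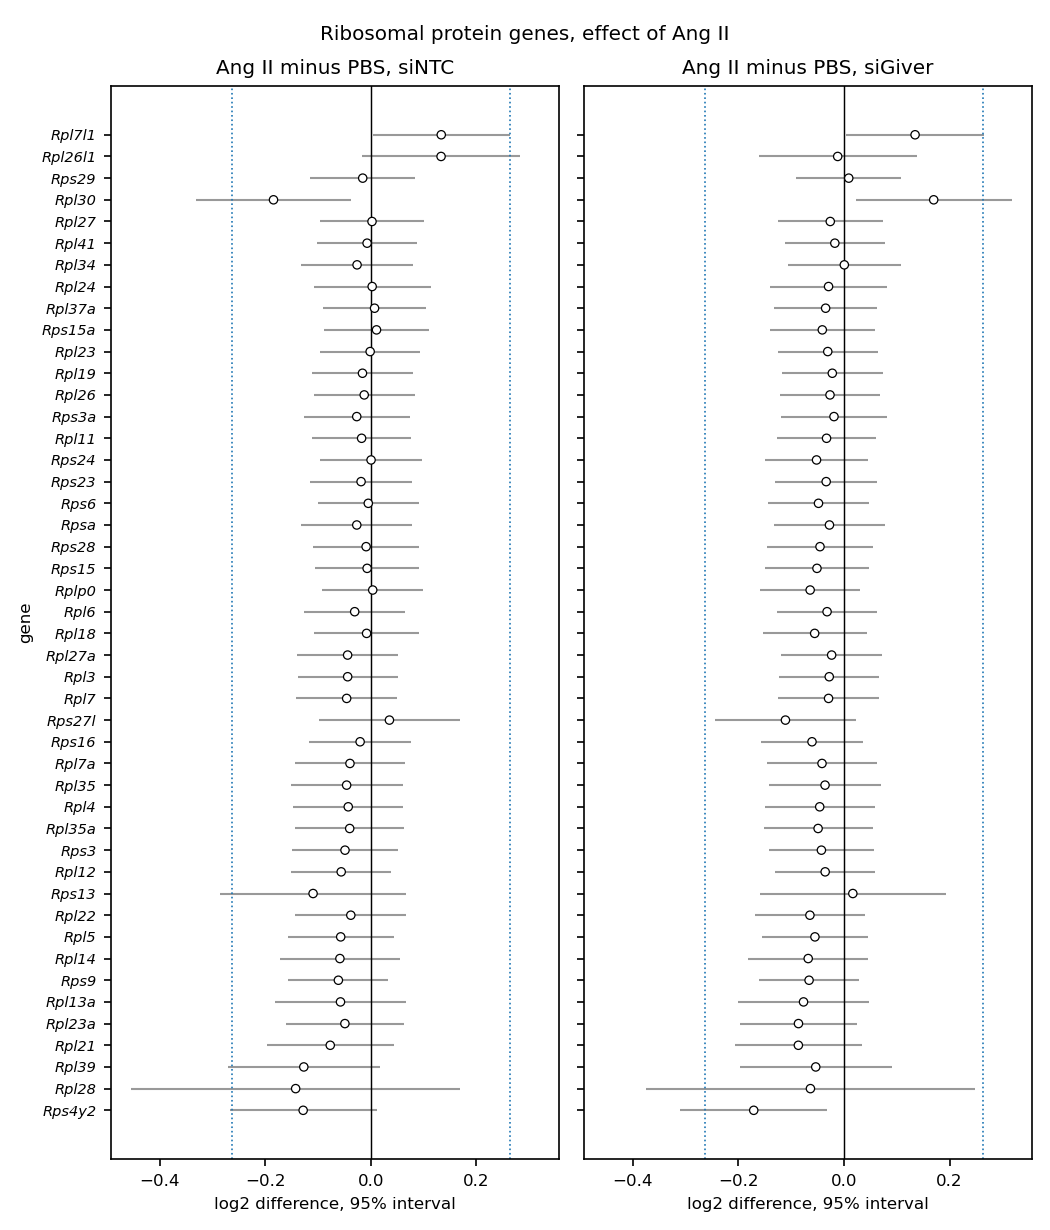
Log2 difference of Ang II over PBS with its 95% interval for the 46 tested members, in siNTC cells (left) and siGiver cells (right), with dotted lines at a 1.2-fold change. No point is filled, since no member passed an adjusted p of 0.05, and most points lie just below 0.

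The members with the smallest p for Ang II were not bright core genes. Rpl7l1, the Rpl7-like gene whose yeast counterpart Rlp7 is a factor of large-subunit assembly, read 9.85 and 9.94 in siNTC with PBS and 9.98 and 10.09 with Ang II. In siGiver cells it read 9.85 and 9.88 with PBS and 10.02 and 9.98 with Ang II. In each arm both Ang II arrays were above both PBS arrays. The difference averaged over the arms was 0.13 ± 0.039 (adjusted p = 0.0515), and 0.11 to 0.17 over all other settings tried. A dimmer probe set of Rpl7l1 gave an averaged difference of 0.21 (adjusted p = 0.0214 in a fit of every probe set). Its parent gene Rpl7 went the other way, by -0.038 ± 0.029 (adjusted p = 0.404).

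Rps4y2, a paralogue of the small-subunit gene Rps4x, is placed on chromosome 4 in the rat annotation. It read 5.04 and 5.07 in siNTC with PBS, 4.89 and 4.96 with Ang II, 5.20 and 5.19 in siGiver with PBS and 5.10 and 4.95 with Ang II. It was the only member that passed for the averaged Ang II effect, where 0 of 46 were higher (11.1% of all genes) and 1 was lower (8.48% of all genes), by 0.15 ± 0.042 on the log2 scale (adjusted p = 0.0449). Its probe set lay close to the filter on low signal, and the call was kept in 1 of 8 fits that each left out 1 array, with an adjusted p up to 0.126.

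The second question is how the same genes differed between siGiver and siNTC cells, where depletion of Giver itself could not be checked. In PBS 1 of 46 members was higher in siGiver than in siNTC cells (16% of all genes were) and 0 were lower (19.1% of all genes). With Ang II 2 were higher (19.5% of all genes) and 1 lower (24.8% of all genes). The called members were Rpl35a in both treatments and, with Ang II, Rpl30 as higher and Rpl26l1 as lower. The median member difference was 0.033 in PBS, where 37 of 46 lay above 0, and 0.017 with Ang II, where 32 did, against -0.005 and -0.026 over all genes. The 31 large-subunit genes had medians of 0.031 and 0.023 and the 15 small-subunit genes 0.033 and 0.014, and the difference between subunits was not tested. At an unadjusted p under 0.05 there were 4 members in PBS (45% of all genes) and 7 with Ang II (51.8% of all genes).

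Rpl35a, a large-subunit gene mutated in human Diamond-Blackfan anaemia, read 13.30 and 13.36 in siNTC with PBS and 13.29 and 13.29 in siNTC with Ang II. It read 13.50 and 13.46 in siGiver with PBS and 13.43 and 13.43 in siGiver with Ang II. All 4 siGiver arrays were above all 4 siNTC arrays. The difference was 0.15 ± 0.044 in PBS (1.11-fold, 95% interval 0.046 to 0.25, adjusted p = 0.0340) and 0.14 ± 0.044 with Ang II (1.10-fold, 0.037 to 0.24, adjusted p = 0.0344). With 1 array left out in turn the call in PBS was kept in 1 of 8 fits (adjusted p 0.0439 to 0.146) and that with Ang II in 4 of 8 (0.0332 to 0.119), while the difference averaged over treatments, 0.15 ± 0.031 (adjusted p = 0.00582), was kept in all 8. The array whose loss kept the call in PBS was the second of siNTC with PBS.

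The averaged contrast was added after the values had been seen. It sets 4 siGiver arrays against 4 siNTC arrays and called 8 members higher (23.1% of all genes) and 0 lower (29.1% of all genes). These were Rpl35a, Rpl30, Rpl4, Rps3, Rpl3, Rpl6, Rpl27a and Rps4y2, and the 6 bright ones among them were raised by 1.06- to 1.11-fold. With 1 array left out, 3 to 5 members were called higher, and Rps4y2 was kept in 1 of the 8 fits. In 12 members all siGiver arrays lay above all siNTC arrays (16.5% of all genes), and in 0 members all lay below (21% of all genes).

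Rpl4, a large-subunit protein whose loop lines the peptide exit tunnel, read 13.38 and 13.43 in siNTC with PBS, 13.34 and 13.38 with Ang II, 13.52 and 13.53 in siGiver with PBS and 13.49 and 13.47 with Ang II. The siGiver and siNTC arrays did not overlap, and the averaged difference was 0.12 ± 0.032 (adjusted p = 0.0143). Without the first array of siNTC with Ang II the adjusted p was 0.0501, and it was 0.0187 or more in the other 7 such fits.

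Rps3, a small-subunit protein at the entry of the messenger RNA channel, read 13.50 and 13.54 in siNTC with PBS, 13.48 and 13.46 with Ang II, 13.60 and 13.64 in siGiver with PBS and 13.58 and 13.58 with Ang II. The averaged difference was 0.10 ± 0.030 (adjusted p = 0.0226). Rpl3, which reaches towards the peptidyl transferase centre, read 13.94 and 13.94, 13.90 and 13.90, 14.01 and 14.04, and 14.00 and 14.00 in the same order of groups, and its averaged difference was 0.092 ± 0.029 (adjusted p = 0.0288). In both genes every siGiver array was above every siNTC array. With 1 array left out the call of Rps3 was kept in 3 of 8 fits (adjusted p up to 0.0704) and that of Rpl3 in 0 of 8 (0.0545 to 0.0794), with the differences at 0.093 to 0.11 and 0.087 to 0.098.

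**Figure D3:**
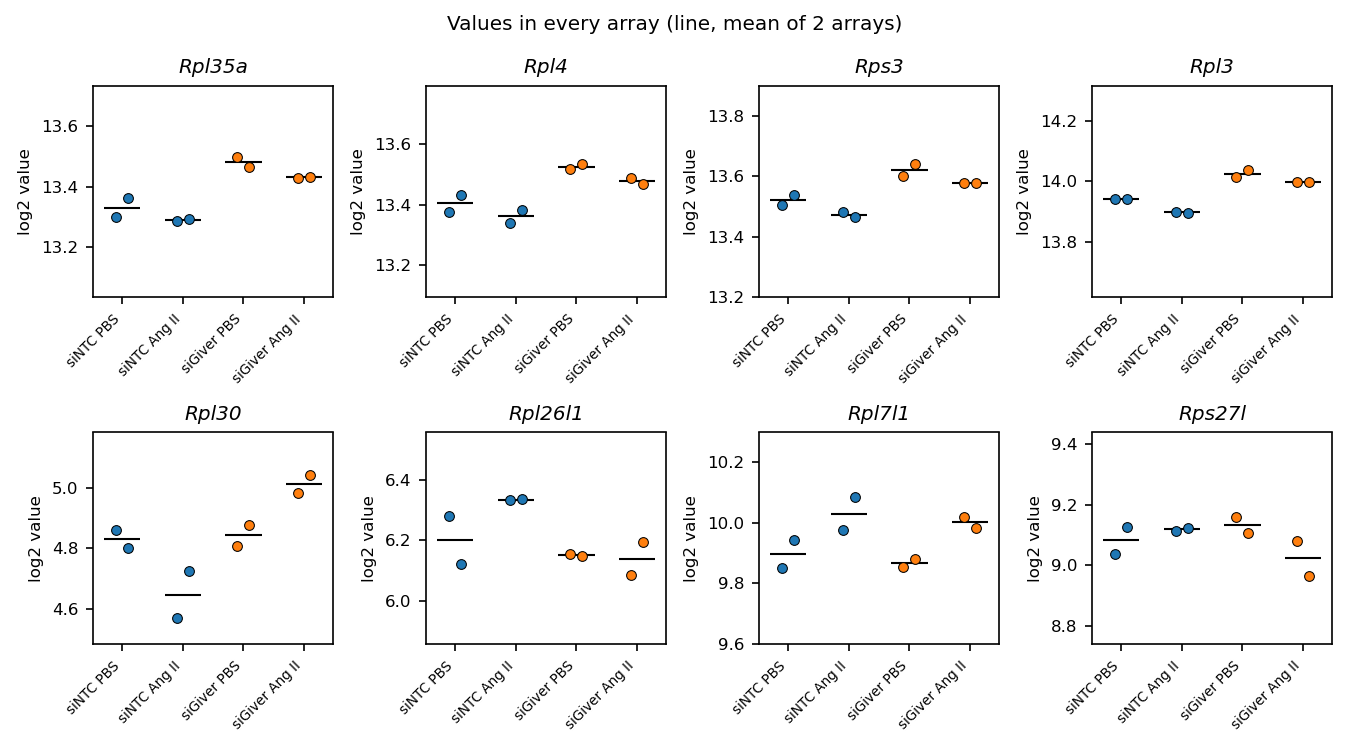
Log2 values in every array (points, 2 per group, siNTC blue and siGiver orange) with the group mean (line) for 8 members, drawn to the same height in log2 units. The siGiver points lie above all siNTC points in Rpl35a, Rpl4, Rps3 and Rpl3, and the Ang II points of Rpl7l1 lie above its PBS points within each siRNA.

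The siRNA effect was measured on separate arrays in the 2 treatments. Across the 38 genes the siRNA differences in PBS and with Ang II had a Pearson correlation of 0.861 and a Spearman correlation of 0.769, with 26 genes above 0 in both and 4 below 0 in both. The corresponding Ang II differences in siNTC and siGiver cells had correlations of 0.391 and 0.334, with 0 genes above 0 in both and 30 below. These describe genes that share arrays and are not independent replicates. The corresponding correlations over all genes were not computed, so no trait particular to this family can be read from them.

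Rpl35a and Rpl4 had the highest siRNA differences of the bright genes in both treatments. The lowest averaged differences were those of Rps6, Rpl19 and Rpl27. Rps6 read 14.01 and 14.03 in siNTC with PBS, 14.01 and 14.03 with Ang II, 14.01 and 14.01 in siGiver with PBS and 13.97 and 13.96 with Ang II. Its siRNA difference with Ang II was -0.055 ± 0.041 (adjusted p = 0.319). Rplp0 differed by 0.037 ± 0.041 in PBS and -0.030 ± 0.041 with Ang II, Rpl11 by 0.021 ± 0.040 and 0.0056 ± 0.040, and Rpsa by 0.014 ± 0.045 and 0.013 ± 0.045. Rpl5, at 0.079 ± 0.043 and 0.081 ± 0.043, did not pass in the main fit (adjusted p = 0.203 and 0.171) and stood nearer to Rpl3 than to its partner Rpl11. Whether the difference between any 2 of these genes is larger than its error was not tested.

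**Figure D4:**
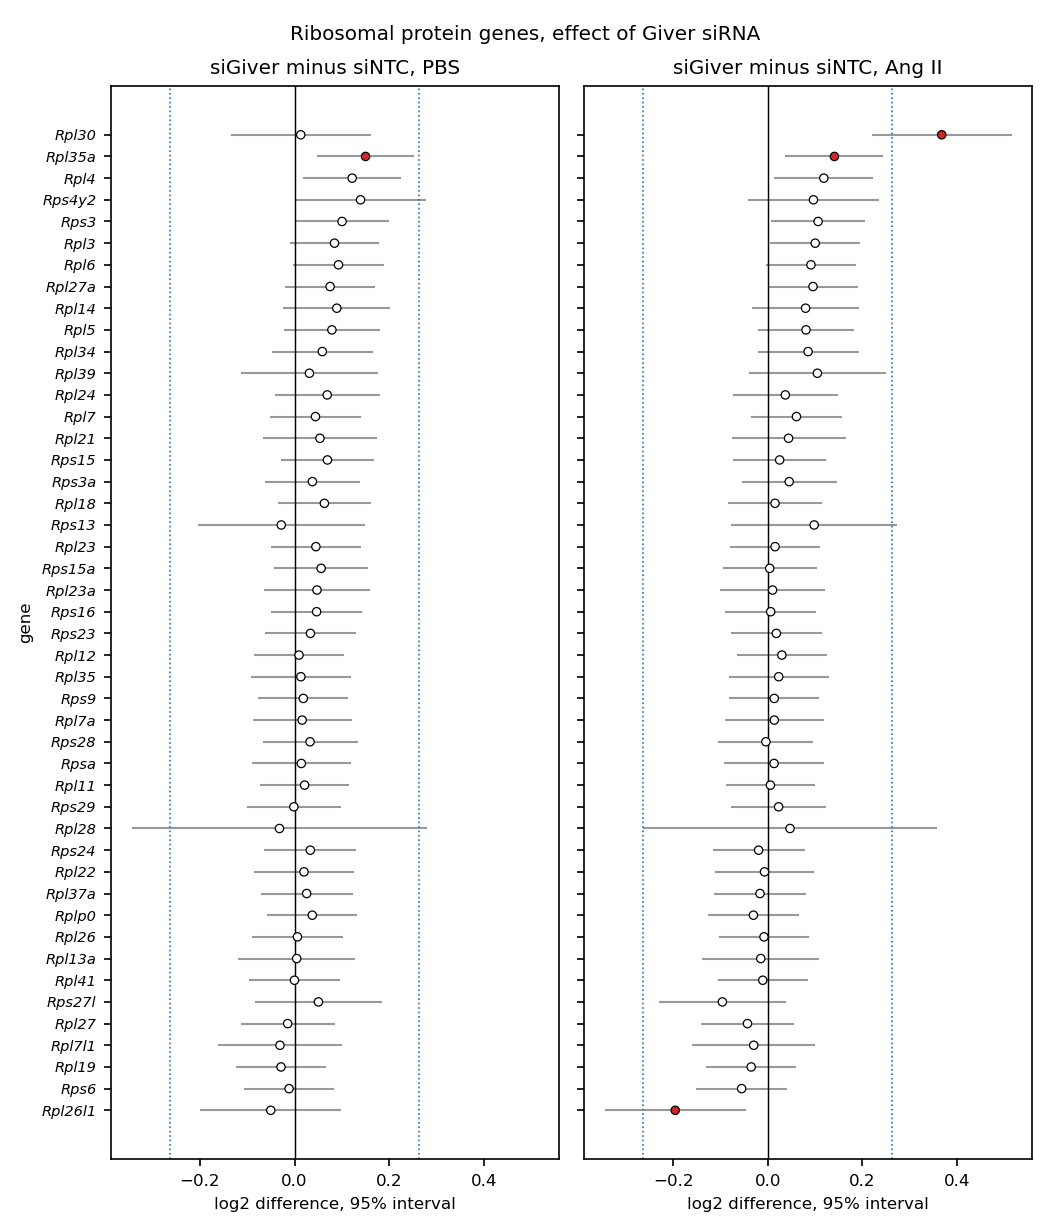
Log2 difference of siGiver over siNTC with its 95% interval for the 46 tested members, in PBS (left) and with Ang II (right), with dotted lines at a 1.2-fold change and filled points for adjusted p under 0.05. Rpl35a is filled on both sides, Rpl30 and Rpl26l1 on the right, and the order of the bright genes is similar on both sides.

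How many of these small shifts count as changes depends on how the spread of a gene is estimated. The main fit shrinks each gene's variance towards 1 common value, and gave members a median SE of 0.043 (0.060 over all genes). When the common value was allowed to follow the signal, with robust estimation, the median SE of members was 0.023. That fit called 12 of 46 higher in PBS (18.1% of all genes in that fit) and 11 with Ang II (21.4% of all genes), of which 8 were the same genes. They were Rpl35a, Rpl4, Rps3, Rpl3, Rpl6, Rpl27a, Rpl14 and Rpl5. Averaged over treatments it called 14 higher (24.1% of all genes). The 1 member it called lower for the siRNA was Rps6, by 0.055 ± 0.020 with Ang II (adjusted p = 0.0257, where 27.2% of all genes were lower) and by 0.033 averaged over treatments (adjusted p = 0.0494, 31% of all genes).

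For Ang II the same fit called 5 members lower in siGiver cells (11.7% of all genes), Rpl21, Rpl23a, Rplp0, Rps16 and Rps9, by 0.061 to 0.087 on the log2 scale. Averaged over the arms it called 10 lower (12.1% of all genes). The estimates are the same in both fits, and the largest of a bright core gene in any comparison was the 0.15 of Rpl35a.

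Other genes with bright probe sets were counted in the same way. Among 261 other genes with a mean of 12 log2 or more, 39.8% were called for the siRNA in PBS and 49% with Ang II. Among 61 other genes at 13 or more, 32.8% and 52.5% were called, against 2.78% and 2.78% of the 36 members at 13 or more. For Ang II the 61 genes were called in 4.92% (siNTC) and 11.5% (siGiver) and the 36 members in 0% and 0%. Compression of signal near the top of the scale was not tested beyond these counts.

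The third question is whether the response to Ang II differed between siGiver and siNTC cells. For this interaction, the Ang II effect in siGiver minus that in siNTC cells, 0 of 46 members were higher (3.35% of all genes) and 0 lower (2.87% of all genes). At an unadjusted p under 0.05 there was 1, Rpl30 (22.8% of all genes). Among the bright core genes the interaction spanned -0.068 (Rplp0) to 0.027, and all 38 intervals stayed within 1.2-fold.

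Rpl30 had the smallest p. Its dim single-gene probe set read 4.86 and 4.80 in siNTC with PBS, 4.57 and 4.72 with Ang II, 4.81 and 4.88 in siGiver with PBS and 4.98 and 5.04 with Ang II. The siNTC arrays with Ang II were the lowest and the siGiver arrays with Ang II the highest. The interaction was 0.35 ± 0.090 (adjusted p = 0.0626), and the siRNA difference with Ang II was 0.37 ± 0.063 (1.29-fold, adjusted p = 0.00255), against 0.013 ± 0.063 in PBS. The siRNA difference with Ang II was 0.29 to 0.44 in the 8 fits that left out 1 array. The probe set averaged 4.83 log2 against a filter of 4.81, with group means of 4.83, 4.65, 4.84 and 5.01 in the same order. It passed the filter only through siGiver with Ang II, the group where it reads highest, so these fits are no independent support.

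That probe set lay just above the filter, and brighter probe sets that include Rpl30 among several symbols did not show the difference. They read 13.65 and 13.16 log2 on average, and their siRNA differences with Ang II were 0.032 ± 0.051 and 0.057 ± 0.055 (adjusted p = 0.673 and 0.466 in a fit of every probe set). Dim second probe sets of other members differed among themselves. The dim set of Rps24 (8.49 log2) differed by 0.41 with Ang II (adjusted p = 0.00265) and that of Rpl14 (5.69 log2) by 0.30 (adjusted p = 0.0347). Their bright sets differed by -0.019 and 0.080, and neither passed. The dim sets of Rpl3 (9.07 log2) and Rpl7 (8.26 log2) each differed by 0.13 and did not pass (adjusted p = 0.0751 and 0.125). Which transcripts the dim sets report is not given in the sources used here.

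Among paralogues, Rpl26l1 read 6.28 and 6.12 in siNTC with PBS, 6.33 and 6.33 with Ang II, 6.15 and 6.15 in siGiver with PBS and 6.08 and 6.19 with Ang II. Both siGiver arrays with Ang II were below both siNTC arrays with Ang II, by 0.20 ± 0.064 (1.14-fold lower, adjusted p = 0.0401), and the call was kept in 3 of 8 fits that left out 1 array (adjusted p up to 0.205). Its interaction was -0.14 ± 0.091 (adjusted p = 0.396). The parent Rpl26 spanned only 0.034 log2 over the 8 arrays, from 14.16 to 14.19. Rps27l, known in human cells as a target of p53, read 9.04 and 9.13 in siNTC with PBS, 9.11 and 9.12 with Ang II, 9.16 and 9.11 in siGiver with PBS and 9.08 and 8.96 with Ang II, and its interaction was -0.15 ± 0.081 (adjusted p = 0.338).

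Lists of other genes of the translation machinery, chosen with earlier results of these data known, are given for comparison, and their counts are to be read against the shares of all genes called: for the siRNA 16% higher and 19.1% lower in PBS, 19.5% higher and 24.8% lower with Ang II. The receptor for activated C kinase Rack1, a small-subunit protein outside the symbol rule, was higher in siGiver cells by 0.096 ± 0.029 over both treatments (adjusted p = 0.0250). Of 15 translation factors known for TOP messages, 3 were higher (20%) and 0 lower in siGiver cells with PBS, and 4 were higher (26.7%) and 0 lower with Ang II, so the shares called higher were near those of all genes. Eif4b, an initiation factor that aids the helicase Eif4a, read 10.62 and 10.71 in siNTC with PBS, 10.48 and 10.49 with Ang II, 10.97 and 11.01 in siGiver with PBS and 10.86 and 10.88 with Ang II. Its siRNA difference was 0.33 ± 0.048 in PBS (adjusted p = 0.00159) and 0.38 ± 0.048 with Ang II (adjusted p = 0.000558). The elongation factor Eef1b2 and the histone chaperone Nap1l1 were also higher in both treatments. For Ang II, 0 of the 15 passed in siNTC cells and 1, Eif3h, was lower in siGiver cells (6.67%, against 7.19% of all genes), and the medians of -0.078 and -0.062 lay on the same side of 0 as those of the ribosomal proteins. Of 31 other initiation, elongation and release factors, 4 were higher (12.9%) and 4 lower (12.9%) with the siRNA in PBS, and 8 were higher (25.8%) and 3 lower (9.68%) with Ang II. Eif4e, which binds the cap of messages, was higher with Ang II in siGiver cells by 0.38 ± 0.051 (adjusted p = 0.00288), and Eif1ax, a factor of start-codon scanning, was lower with the siRNA in PBS by 0.61 ± 0.058 (adjusted p = 0.000236).

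Factors that assemble ribosomes were counted in the same way. Of 85 genes of ribosome biogenesis and RNA polymerase I, 26 were higher (30.6%, against 9.12% of all genes) and 1 lower with Ang II in siGiver cells (median 0.13). In siNTC cells 3 were higher (3.53%, against 3.97% of all genes) and 0 lower (median 0.056). With Giver siRNA 36 were higher (42.4%, against 19.5% of all genes) and 3 lower (3.53%, against 24.8%) in the presence of Ang II (median 0.11). In PBS 16 were higher (18.8%, against 16% of all genes) and 5 lower (5.88%, against 19.1%), with a median of 0.031. Gar1, a protein of the snoRNPs that guide pseudouridylation of ribosomal RNA, read 8.45 and 8.47 in siNTC with PBS, 8.54 and 8.58 with Ang II, 8.48 and 8.54 in siGiver with PBS and 9.004 and 9.02 with Ang II. Its interaction was 0.40 ± 0.063 (adjusted p = 0.0123).

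Of 31 regulators of ribosomal protein synthesis, 11 were higher (35.5%, against 16% of all genes) and 6 lower (19.4%, against 19.1%) with the siRNA in PBS, and 9 were higher (29%, against 19.5%) and 10 lower (32.3%, against 24.8%) with Ang II. Myc, a transcription factor of growth and ribosome biogenesis, read 9.12 and 9.17 in siNTC with PBS, 9.18 and 9.20 with Ang II, 9.57 and 9.61 in siGiver with PBS and 10.25 and 10.25 with Ang II. Its siRNA difference with Ang II was 1.06 ± 0.044 (adjusted p = 7.11e-06), its interaction 0.61 ± 0.062 (adjusted p = 0.00203). The Myc antagonist Mxi1 was lower by 1.09 ± 0.068 (adjusted p = 2.97e-05) and the translational repressor Eif4ebp1 higher by 0.82 ± 0.055 (adjusted p = 3.83e-05) with the siRNA in the presence of Ang II. Whether the ribosomal protein shifts depend on these genes was not tested.

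Ribosomal proteins of the mitochondrion are encoded in the nucleus too. Of 73, 12 were higher (16.4%, against 16% of all genes) and 1 lower (1.37%, against 19.1%) with the siRNA in PBS (median 0.029). With Ang II 4 were higher (5.48%, against 19.5%) and 26 lower (35.6%, against 24.8%), with a median of -0.11. Mrpl49 fell by 0.71 ± 0.061 with the siRNA in the presence of Ang II (adjusted p = 0.000100). A control probe set on the array for 5S ribosomal RNA read 8.15 and 8.24 in siNTC with PBS, 8.88 and 8.93 with Ang II, 7.64 and 7.62 in siGiver with PBS and 7.71 and 7.77 with Ang II, opposite in sign to the median difference of the members in each of the 4 pairwise comparisons, and how much of it the labelling of total RNA captures was not tested. The log2 difference between 3′ and 5′ control probe sets was 0.23 to 0.30 for actin and -0.16 to -0.055 for Gapdh over the 8 arrays.

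**Figure D5:**
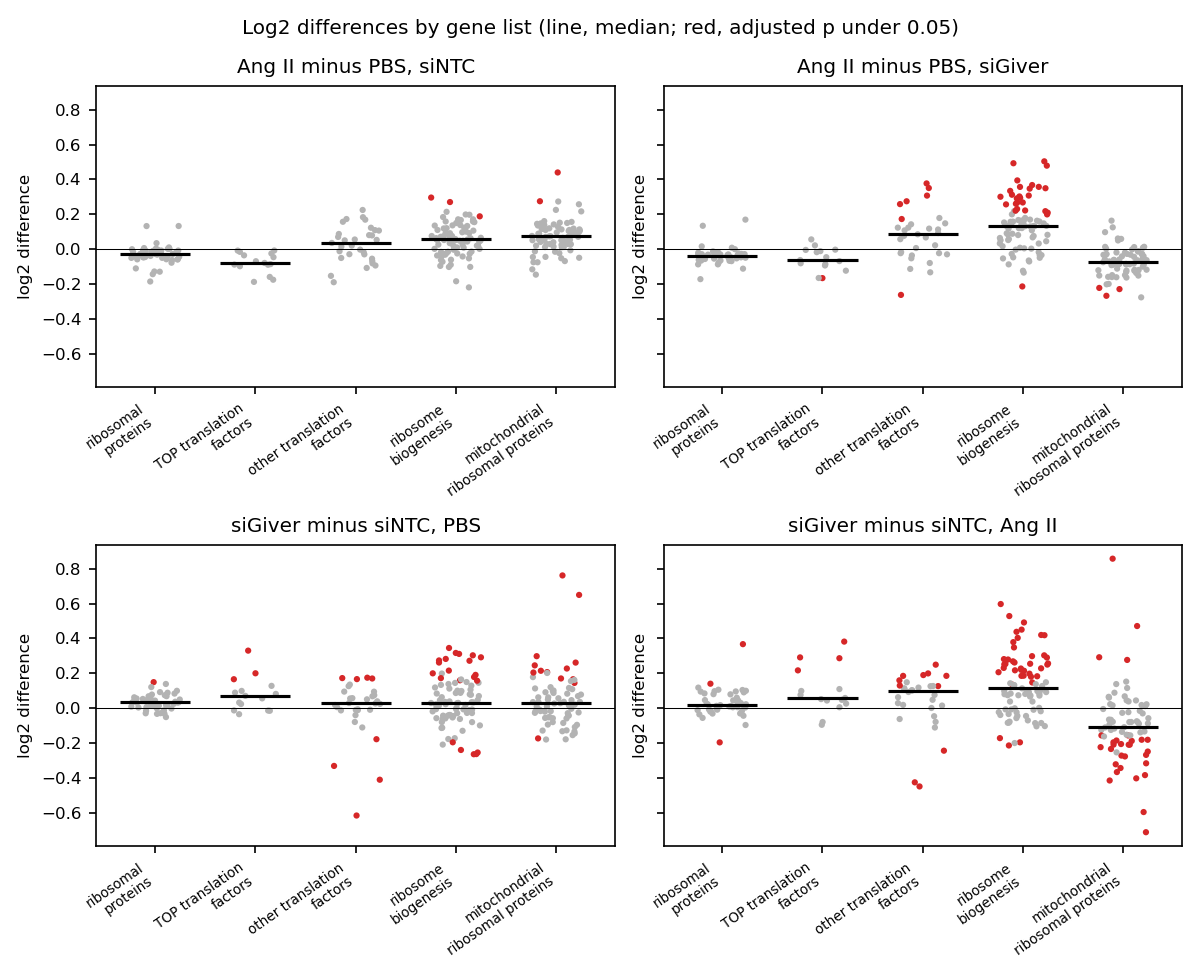
Log2 differences of single genes (points, red for adjusted p under 0.05) with the median of each list (line) in the 4 pairwise comparisons. The 46 ribosomal protein genes lie between -0.20 and 0.37 in all 4 panels, and the 73 mitochondrial ribosomal protein genes reach from -0.71 to 0.86 with the siRNA and Ang II.

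Members with and without a pyrimidine run at the start were set side by side. The averaged siRNA difference had a median of 0.035 over the 23 with a run and 0.014 over the 18 tested members without one, and 5 and 2 of them were called higher (23.1% of all genes). Rps3, Rpl6 and Rpl5, which rank among the most raised, have no run at the annotated start. Each holds a run of at least 5 pyrimidines shortly before that start, so its class depends on where the start is annotated. Rps23, whose run is 21 bases long, differed by 0.026 ± 0.029. The averaged Ang II difference had medians of -0.036 and -0.029. No test was made of this split.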

How the data were processed

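The members and the gene lists were chosen with earlier results of these data known. The deposited table gives 1 log2 value per probe set and array for 8 arrays, between 2.06 and 14.6, and per the submitters' processing notes the authors used RMA and Partek, with no version stated. RMA subtracts background, equalises the quantiles of all arrays and summarises each probe set, so it holds the overall distribution of values equal between arrays and a shift common to most genes cannot be seen. Array medians lay between 6.15 and 6.19.

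Probe sets were named from the platform annotation. Of 31099, 20832 carried 1 symbol, 436 several, 9780 were not listed there and 57 were controls. For each symbol the probe set with the highest mean stood for the gene, and genes averaging under the 30th percentile (4.81 log2) were left out. Group means over the 8 arrays were fitted by limma 3.58.1 (R 4.3.3), which left 4 residual and added 3.53 prior degrees of freedom, with Benjamini-Hochberg adjustment over 11373 genes and a threshold of 0.05. The labels give a 2 by 2 design, from which 5 contrasts were taken, and 2 averages were added after seeing the data. The fit was tested on simulated data whose variances were drawn around the 1 common value that the main fit assumes. That test therefore does not cover a spread that follows the signal. Values in every array are given for the members with the smallest p per comparison, for paralogues and for genes of known special role, namely Rpl5, Rpl11, Rplp0, Rps6 and Rpsa, and for the first of these classes up to 5 per direction.

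Replicate numbers came from the labels. Deviations of same-numbered arrays correlated between -0.17 and 0.095, so the numbers do not pair the samples. Alternatives were other filters, scalings, probe-set rules and variance models, and each array left out. Promoters were those of RefSeq (GRCr8). Slide and scan date were not analysed here.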

Additional observations from a re-analysis of the deposited data

How the results depend on the processing

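Depth does not apply to arrays, and the 2 arrays per group and the closeness of many small differences to the threshold limit what can be called. Named members were recomputed under 17 alternatives, or 16 for Rpl30 and Rps4y2, which the 50th-percentile filter leaves out, and none reversed as a call under these. Over all pairs of a named member's difference and an alternative, 2012 kept the side of the threshold, 68 lost a call and 48 gained one. Those 2012 include differences that were not called and changed sign. That of Rpl26l1 for the siRNA in PBS ran from -0.13 to 0.029, and that of Rpl26 for Ang II in siNTC cells from -0.024 to 0.0013. The cause of the shifts in counts was not tested except where the alternative tests more or fewer genes.

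Counts of members called are given as higher or lower, against 1 higher for the siRNA in PBS, 2 higher and 1 lower with Ang II, 8 higher averaged over treatments and 1 lower for Ang II averaged over siRNAs. The matching shares of all genes in the main fit were 16%, 19.5% and 24.8%, 23.1% and 8.48%. Shares under the alternatives, here and in the next paragraph, are not given except above for the trended fit. These counts therefore describe how calls move and are not results about the members. Without the filter and with every probe set on its own, which test more features, they were 0, 1 and 0, and 5 or 4 averaged, and 0 for averaged Ang II. With a 50th-percentile filter they were 2 in PBS, with 1 lower averaged over treatments, and 1 higher and 0 lower for averaged Ang II. With probe sets averaged per gene 4 were higher with Ang II, 1 lower in the siRNA average, and 1 was higher for Ang II in siGiver cells and for averaged Ang II. After cyclic loess 3 were higher in PBS, 7 with Ang II, 1 in the interaction, 1 was lower in the siRNA average and 0 for averaged Ang II. With array medians subtracted 0 were lower with the siRNA and Ang II, 1 was higher and 0 lower for averaged Ang II. With the median of bright non-member genes subtracted 5 were higher in PBS, 4 higher and 0 lower with Ang II. With trended and robust moderation 12 and 11 were higher for the siRNA, 14 higher and 1 lower averaged, 1 higher and 5 lower for Ang II in siGiver cells, and 1 higher and 10 lower for averaged Ang II. For core genes 0 were lower in either contrast, and for bright core genes alone (chosen after seeing the data) 1 was higher and 0 lower with the siRNA and Ang II and 0 were lower for averaged Ang II. With the replicate number as a block, on numbers that showed no shared shift, 0 were higher in PBS, 0 lower with Ang II and 0 lower for averaged Ang II.

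With 1 array left out, where the lone array of a group is assumed to vary like the other groups, 0 to 1 were higher in PBS, 1 to 2 higher and 0 to 1 lower with Ang II, 0 to 1 higher in the interaction, 3 to 5 higher and 0 to 1 lower in the siRNA average, and 0 to 1 higher and 0 to 1 lower for averaged Ang II. The median interaction of the bright core genes was -0.010 in the main analysis and 0.00599 with array medians subtracted.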

Other observations

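The 36 probe sets that carry several symbols, among them 65 distinct ribosomal protein symbols, were kept apart from the named genes. Of these, 32 had a mean of 12 log2 or more. In a fit of every probe set, 0 of the 36 were called for Ang II in siNTC cells (2.33% of all 21716 probe sets were higher and 1.60% lower) or in siGiver cells (7.98% and 4.75%). For the siRNA 0 were called in PBS (12.3% of all probe sets higher and 15.5% lower), and 1 was higher (17.1%) and 1 lower (18.6%) with Ang II. Their median differences were -0.025 for Ang II in siNTC cells, -0.045 for Ang II in siGiver cells, 0.039 for the siRNA in PBS and 0.023 for the siRNA with Ang II. These lie on the same side of 0 as the medians of the named members.

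Of the 10 tested members that are mutated in human Diamond-Blackfan anaemia, only Rpl35a was called for the siRNA in the main fit, in both treatments. This is 10% called, against 35.1% of all genes called in PBS and 44.3% with Ang II. The other 9 had siRNA differences that did not pass in either treatment in the main fit. Of these, the trended fit called Rpl18 higher in PBS (adjusted p = 0.0320) and Rpl5 higher in both treatments. In that fit 18.1% of all genes were higher in PBS and 21.4% with Ang II. The medians of those 9 were 0.021 in PBS and 0.0056 with Ang II.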
